A study of Mus musculus with 24 samples.

Results

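The 10 genes described here were chosen by name as subunits, inhibitors and targets of NF-κB, and all 10 of 10 were among the 15667 genes listed for uninjected hearts and the 15327 listed for injected hearts. *Nfkb1* and *Nfkb2* (the p105/p50 and p100/p52 precursors), *Rela* (p65) and *Relb* encode subunits. *Nfkbia*, *Nfkbib* and *Nfkbie* encode the inhibitors IκBα, IκBβ and IκBε, and *Tnfaip3* encodes A20, a ubiquitin-editing enzyme that ends signaling upstream. *Ccl2*, a chemokine that attracts monocytes, and *Icam1*, an adhesion molecule that leukocytes bind on endothelium, are targets. *Nfkbia* and *Tnfaip3* are also NF-κB targets.

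NF-κB is a family of dimeric transcription factors that IκB proteins hold in the cytoplasm of resting cells. Inflammatory signals such as tumour necrosis factor and interleukin-1 lead to IκB degradation, and the freed dimers enter the nucleus and switch on cytokines, adhesion molecules and their own inhibitors. In the heart the pathway is active in cardiomyocytes, endothelium, fibroblasts and resident or infiltrating leukocytes, and its chemokine and adhesion targets recruit further leukocytes.

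The study sequenced 24 libraries of heart RNA from mice of postnatal day 7.5, with 4 libraries in each of 6 groups. Uninjected *Xinβ* KO mice carry a germline *Xinβ* (*Xirp2*) allele in which a LacZ-Neo cassette replaces part of the gene, on a C57BL6 background, and were compared with uninjected wild-type (WT) mice. The other 4 groups were *Xinβ* KO pups or their control littermates injected with AAV9 under the skin on postnatal day 1: WT/GFP, *Xinβ* KO/GFP, WT/YAP and *Xinβ* KO/YAP. The YAP vector encodes flag-tagged human YAP S127A, which escapes inhibition by Hippo signaling, and both vectors use the chicken cardiac troponin T promoter, which is active in cardiomyocytes. The KO is present in every cell of the body, and the labels name the heart apex where the study's methods name the ventricles. The sex of each mouse is not in the labels, and the methods state that males and females were equally represented in each RNA-seq group.

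Levels are in CPM, read counts that the authors scaled to the size of each library, and comparisons are differences of log2(CPM + 1) from limma across all tested genes, 15598 in uninjected and 14597 in injected hearts. A gene is called when its Benjamini-Hochberg adjusted p-value is under 0.05. The libraries held 20490875 to 31154155 reads on genes in uninjected hearts and 15015038 to 19444404 in injected hearts, and each library held 18 to 2094 reads of each of the 10 genes. *Xirp2* was at 0.291 to 0.692 CPM in uninjected *Xinβ* KO hearts and at 106 to 168 CPM in WT hearts, and at 0 to 0.972 CPM against 56.0 to 149 CPM in injected hearts. The summed level of 8 cardiomyocyte markers was 48871 to 82328 CPM over the 24 libraries. Uninjected *Xinβ* KO replicate 1 stood apart from the other 3 hearts of its group, with a chi-square per gene between recovered reads of 105 to 121 against 17.7 to 43.5 among the others, and so did *Xinβ* KO/GFP replicate 2 (62.9 to 89.0 against 12.2 to 39.5). The fold changes of the called genes among the 10 are also given without these hearts. The 2 sets of libraries were normalized separately, so levels are set side by side across them only as a description.

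Promoter sequences from RefSeq (GRCm38.p6) were at hand for 7 of the 10 genes, and the 250 bases before the start site were searched on both strands for the κB consensus of 10 bases, for GGAANTTCC and for GGACTTTCC. The sequences of the called inhibitor and the called adhesion molecule are shown, with that of *Nfkbie*, an inhibitor gene that was not called in any comparison. They run 5′ to 3′ on the strand of the gene, and capitals mark matches. *Nfkbia* lies at chr12:55492648-55492897 on the minus strand, *Icam1* at chr9:21015690-21015939 on the plus strand and *Nfkbie* at chr17:45555450-45555699 on the plus strand.
Nfkbia: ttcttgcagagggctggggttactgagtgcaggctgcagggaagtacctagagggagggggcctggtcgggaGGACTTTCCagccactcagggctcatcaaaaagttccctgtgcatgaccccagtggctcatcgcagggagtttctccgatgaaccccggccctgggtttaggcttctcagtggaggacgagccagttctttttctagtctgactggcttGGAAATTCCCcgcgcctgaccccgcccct
Icam1: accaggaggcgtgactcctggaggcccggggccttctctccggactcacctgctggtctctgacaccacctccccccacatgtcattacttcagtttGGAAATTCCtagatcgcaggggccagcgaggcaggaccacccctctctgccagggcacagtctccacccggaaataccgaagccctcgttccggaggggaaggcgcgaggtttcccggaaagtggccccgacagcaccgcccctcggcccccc
Nfkbie: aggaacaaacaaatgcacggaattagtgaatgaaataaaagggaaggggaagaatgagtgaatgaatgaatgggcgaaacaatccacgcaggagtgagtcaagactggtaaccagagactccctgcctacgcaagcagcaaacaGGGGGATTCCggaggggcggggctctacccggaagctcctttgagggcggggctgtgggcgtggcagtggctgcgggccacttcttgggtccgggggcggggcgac

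In *Nfkbia*, GGACTTTCC began 178 bases before the start, and GGAAATTCCC, which began 29 bases before it, matched the κB consensus on the minus strand and overlapped a match of GGAANTTCC. In *Icam1*, GGAAATTCC began 153 bases before the start and was the only match. In *Nfkbie*, the κB consensus matched once, 106 bases before the start. Matches were also found for *Tnfaip3*, where GGAATTTCC began 24 bases before its first start site, and at all 3 start sites of *Nfkb2*, and none for *Rela* or *Nfkbib*. Thus 5 of the 7 genes held at least 1 match, among them genes that were called and genes that were not. No sequence was at hand for *Nfkb1*, *Relb* or *Ccl2*. Counted by window, as some genes have several start sites, 7 of 10 held a match. Of all 32851 promoter windows of this length, 3.90% held the κB consensus, 0.813% GGAANTTCC, 0.283% GGACTTTCC and 4.64% at least 1 of the 3. A match describes the letters in the window and does not show binding.

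The first question was whether loss of *Xinβ* alters NF-κB genes in the neonatal heart. In uninjected hearts, 3 of the 10 genes were called, *Nfkbia*, *Ccl2* and *Icam1*, all higher in *Xinβ* KO hearts, where 6.69% of all genes tested were called and 3.23% were called higher. None of the 4 subunit genes was called, and their log2 fold changes lay between -0.10 and 0.04. Thus the calls fell on 1 of the 4 inhibitor genes and both genes listed as targets, and not on the genes of the transcription factor itself. *Tnfaip3*, also a target, was not called. Every KO heart was above every WT heart for 5 genes, the 3 called ones with *Nfkbib* and *Tnfaip3*, a state that 8.01% of all genes tested were in. The median log2 fold change was 0.20 over the 10 genes and 0.0011 over all genes.

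*Nfkbia*, whose product retains NF-κB in the cytoplasm, was at 80.1, 67.0, 67.5 and 38.3 CPM in *Xinβ* KO hearts 1 to 4 against 29.9, 29.1, 30.9 and 32.7 CPM in WT hearts. No KO heart fell into the WT range, but KO replicate 4 lay nearest to the WT range. The ratio of the means was 2.06 and the log2 fold change 0.97 (95% confidence interval 0.52 to 1.43, adjusted p = 0.025 from limma). The call was lost in 6 of the 8 fits that each left out 1 library, those without KO replicate 2 or 3 or any 1 of the 4 WT hearts (adjusted p of 0.0654 to 0.0853, limma). It was kept without KO replicate 1 (0.85) and without KO replicate 4 (1.19, adjusted p = 0.000447).

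*Ccl2*, the monocyte chemoattractant, was at 4.76, 4.58, 9.99 and 7.59 CPM in *Xinβ* KO hearts and at 1.16, 1.53, 2.12 and 1.11 CPM in WT hearts. The lowest KO value was above the highest WT value, although *Ccl2* rested on 27 to 46 reads in WT libraries. Its ratio of means was 4.55 and its log2 fold change 1.60 (interval 1.06 to 2.14, adjusted p = 0.00694, limma). *Icam1* was at 16.4, 20.3, 32.5 and 27.8 CPM in *Xinβ* KO hearts and at 9.20, 9.27, 11.1 and 9.52 CPM in WT hearts. These groups did not overlap either, and the WT hearts lay close together. The ratio of means of *Icam1* was 2.48 and its log2 fold change 1.18 (interval 0.73 to 1.64, adjusted p = 0.0109, limma). Both genes were called in 8 of 8 fits without 1 library, *Ccl2* at 1.41 to 1.74 and *Icam1* at 1.03 to 1.35. Without KO replicate 1, which stood apart, *Nfkbia*, *Ccl2* and *Icam1* were called at 0.85, 1.72 and 1.35.

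Among the other inhibitors, *Nfkbib* had 16.2, 12.5, 13.1 and 13.7 CPM in *Xinβ* KO hearts and 9.41, 9.13, 10.8 and 10.3 CPM in WT hearts, a log2 fold change of 0.44 with an adjusted p of 0.0577 that missed the threshold in limma. On the recovered reads DESeq2 called it (0.49, adjusted p = 0.00703) but neither edgeR test did, and it was called in 1 of 8 limma fits without 1 library. *Tnfaip3* was at 6.42 to 9.59 CPM in KO hearts and at 5.45 to 6.12 CPM in WT hearts (log2 fold change 0.37, interval 0.04 to 0.70, adjusted p = 0.172). *Nfkbie* had means of 2.01 ± 0.83 and 1.88 ± 0.51 CPM (SD, n = 4) with overlapping values. The subunits were at 69.6 ± 7.0 and 67.8 ± 6.8 CPM for *Nfkb1*, 22.1 ± 2.4 and 22.4 ± 1.5 for *Nfkb2*, 35.8 ± 3.8 and 38.3 ± 1.9 for *Rela*, and 10.6 ± 0.71 and 10.6 ± 1.8 for *Relb* in KO and WT hearts. The intervals of their log2 fold changes together spanned -0.33 to 0.33.

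**Figure D1:**
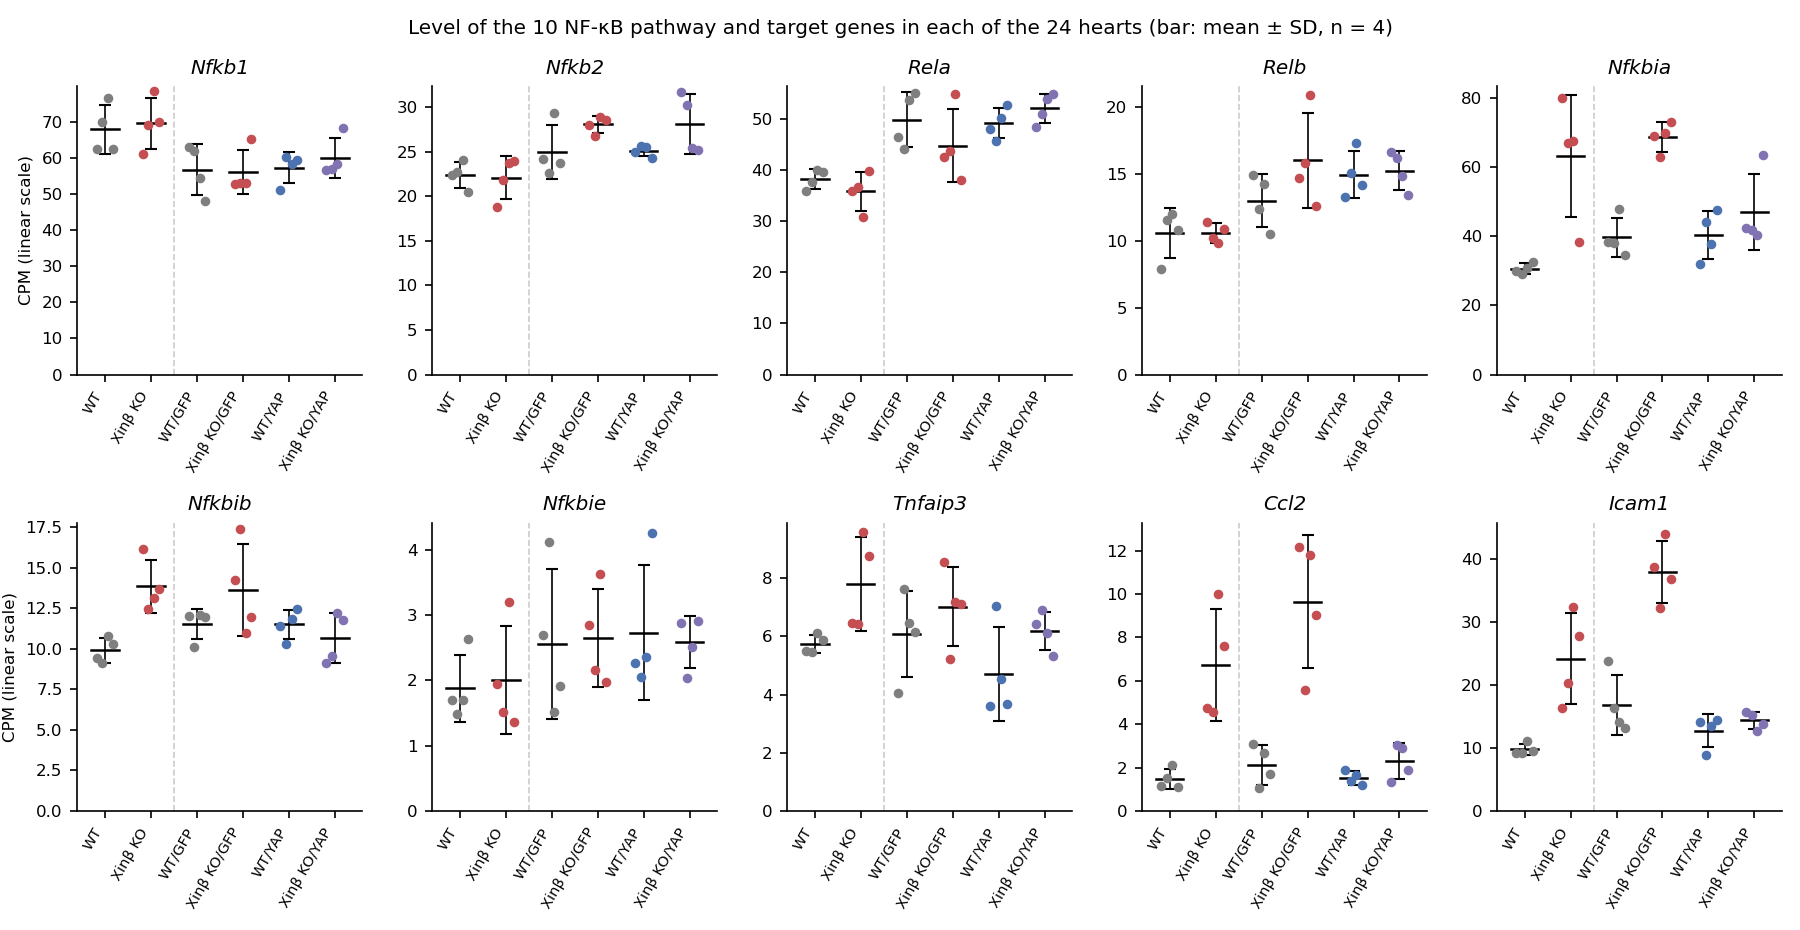
Level of each of the 10 genes in CPM on a linear axis from 0, with 1 point per heart (24 hearts, 4 per group) and the mean ± SD of each group as black bars; the dashed line divides uninjected from injected libraries, which were normalized separately. *Nfkbia*, *Ccl2* and *Icam1* are higher in the red *Xinβ* KO and *Xinβ* KO/GFP hearts than in their grey WT controls, while the 4 subunit genes overlap between genotypes.

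The same 3 genes were called in hearts that had received the GFP vector. With GFP, *Nfkbia*, *Ccl2* and *Icam1* were higher in *Xinβ* KO hearts and none of the 10 was lower, where 13.7% of all genes tested were called and 6.43% were called higher. The groups did not overlap for these 3 genes, in a comparison in which 7.32% of all genes had KO/GFP values wholly above WT/GFP. The 4 *Xinβ* KO/GFP hearts had 69.0, 63.0, 70.0 and 73.2 CPM of *Nfkbia*, and the WT/GFP hearts had 38.4, 38.1, 47.8 and 34.6 CPM. The KO/GFP hearts lay close together, with none as low as any WT/GFP heart. The log2 fold change was 0.78 (interval 0.47 to 1.10, adjusted p = 0.00257, limma) and was called in 8 of 8 fits without 1 library.

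The chemokine *Ccl2* had 12.2, 5.56, 11.8 and 9.03 CPM with the KO and 3.11, 1.06, 2.66 and 1.70 CPM in WT/GFP controls. All 4 KO/GFP values were above all WT/GFP values, with replicate 2 the lowest of its group in both genotypes. Its log2 fold change of 1.76 (interval 1.23 to 2.298, adjusted p = 0.000362, limma) ranked 41 of 14597 genes among the increases. *Icam1* was at 38.8, 32.3, 44.1 and 36.9 CPM against 23.8, 16.4, 14.1 and 13.1 CPM. The groups again did not overlap, and WT/GFP replicate 1 was the highest of its group. The log2 fold change of *Icam1* was 1.15 (interval 0.79 to 1.52, adjusted p = 0.000559, limma). Without *Xinβ* KO/GFP replicate 2, which stood apart, *Nfkbia*, *Ccl2* and *Icam1* were called at 0.83, 1.98 and 1.23.

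The other genes did not pass the test in the GFP-injected hearts. *Nfkbib* had a log2 fold change of 0.21 (interval -0.09 to 0.50) and *Tnfaip3* of 0.19 (interval -0.23 to 0.61), and the values of both overlapped between genotypes. *Relb* had 14.7, 15.8, 20.9 and 12.6 CPM with the KO and 14.9, 12.3, 14.2 and 10.5 CPM in WT/GFP controls, which overlap. The subunits' log2 fold changes lay between -0.16 for *Rela* and 0.27 for *Relb*, each with an interval that included 0.

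The next question was what active YAP in cardiomyocytes did to these genes in hearts that lack *Xinβ*. Between *Xinβ* KO/YAP and *Xinβ* KO/GFP hearts, *Nfkbia*, *Ccl2* and *Icam1* were called lower and none of the 10 higher, where 14.8% of all genes tested were called and 6.92% were called lower. These 3 genes and the 3 called higher in *Xinβ* KO/GFP hearts are measured against the same 4 *Xinβ* KO/GFP libraries, so the opposite signs are not independent of each other. The groups did not overlap for *Ccl2* and *Icam1*, where 8.52% of all genes had KO/YAP values wholly below KO/GFP.

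*Icam1* was at 15.7, 15.3, 12.8 and 13.8 CPM in *Xinβ* KO/YAP hearts, all below the lowest *Xinβ* KO/GFP heart. Its log2 fold change was -1.34 (interval -1.71 to -0.97, adjusted p = 0.000152, limma). *Ccl2* was at 1.35, 3.04, 2.92 and 1.89 CPM, also wholly below *Xinβ* KO/GFP, with a log2 fold change of -1.67 (interval -2.21 to -1.14, adjusted p = 0.000497, limma). *Nfkbia* was at 42.5, 41.8, 40.4 and 63.5 CPM, and here *Xinβ* KO/YAP replicate 4 fell within the *Xinβ* KO/GFP range while the other 3 hearts lay below it. The log2 fold change of *Nfkbia* was -0.56 (interval -0.87 to -0.25, adjusted p = 0.018, limma). It was called in 5 of 8 fits without 1 library (-0.71 to -0.50, adjusted p at most 0.0556) and lost the call without KO/YAP replicate 1, 2 or 3. Without *Xinβ* KO/GFP replicate 2 the 3 genes were called at -1.41 for *Icam1*, -1.89 for *Ccl2* and -0.60 for *Nfkbia*. *Nfkbib* had a log2 fold change of -0.32 (interval -0.61 to -0.02, adjusted p = 0.139) and *Rela* of 0.22 (interval -0.0023 to 0.45, adjusted p = 0.173), neither called.

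Set against WT/GFP hearts, no gene of the 10 was called in *Xinβ* KO/YAP hearts by limma, and none reached an unadjusted p-value under 0.05, where 0.0206% of all genes tested were called. edgeR and DESeq2 on the recovered reads called 0 of the 10 as well. The log2 fold change was 0.22 (interval -0.09 to 0.54) for *Nfkbia*, 0.09 (interval -0.45 to 0.63) for *Ccl2* and -0.18 (interval -0.55 to 0.19) for *Icam1*. The differences inside these intervals are not excluded by these data. Against WT/YAP hearts, *Xinβ* KO/YAP hearts had 0 of the 10 genes called by limma, edgeR or DESeq2 and 0 at an unadjusted p under 0.05, with 0.0411% of all genes called by limma.

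In WT hearts the YAP vector left no gene of the 10 called by limma, edgeR or DESeq2, again with 0 at an unadjusted p under 0.05. Over all genes tested limma called 0, or 0%, while 1011 had an unadjusted p under 0.05 and edgeR's exact test and DESeq2 called 6 and 11. *Nfkbia* was at 31.9, 44.1, 37.7 and 47.7 CPM in WT/YAP hearts, *Ccl2* at 1.89, 1.39, 1.66 and 1.18 CPM and *Icam1* at 14.2, 8.92, 13.5 and 14.5 CPM. The values of each of the 3 genes overlapped those of WT/GFP hearts. The log2 fold changes were 0.02 for *Nfkbia*, -0.27 for *Ccl2* and -0.36 (interval -0.73 to 0.01) for *Icam1*.

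The difference between the effect of YAP in *Xinβ* KO hearts and that in WT hearts was tested as an interaction in the model of all 16 injected libraries. *Ccl2* (-1.41, interval -2.16 to -0.65, adjusted p = 0.0275) and *Icam1* (-0.97, interval -1.50 to -0.45, adjusted p = 0.0268) were called, where 7.56% of all genes tested were called and 3.77% were called lower (limma). *Nfkbia* was not (-0.58, interval -1.02 to -0.13, adjusted p = 0.105). *Ccl2* was called in 11 of the 16 fits without 1 library (-1.62 to -1.22, adjusted p at most 0.059) and *Icam1* in 11 of 16 (-1.14 to -0.87, adjusted p at most 0.0583). Both calls were lost without *Xinβ* KO/GFP replicate 1, WT/GFP replicate 4 or WT/YAP replicate 3. The call of *Ccl2* was also lost without *Xinβ* KO/YAP replicate 1 or WT/GFP replicate 2, and that of *Icam1* without *Xinβ* KO/YAP replicate 3 or WT/YAP replicate 4.

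**Figure D2:**
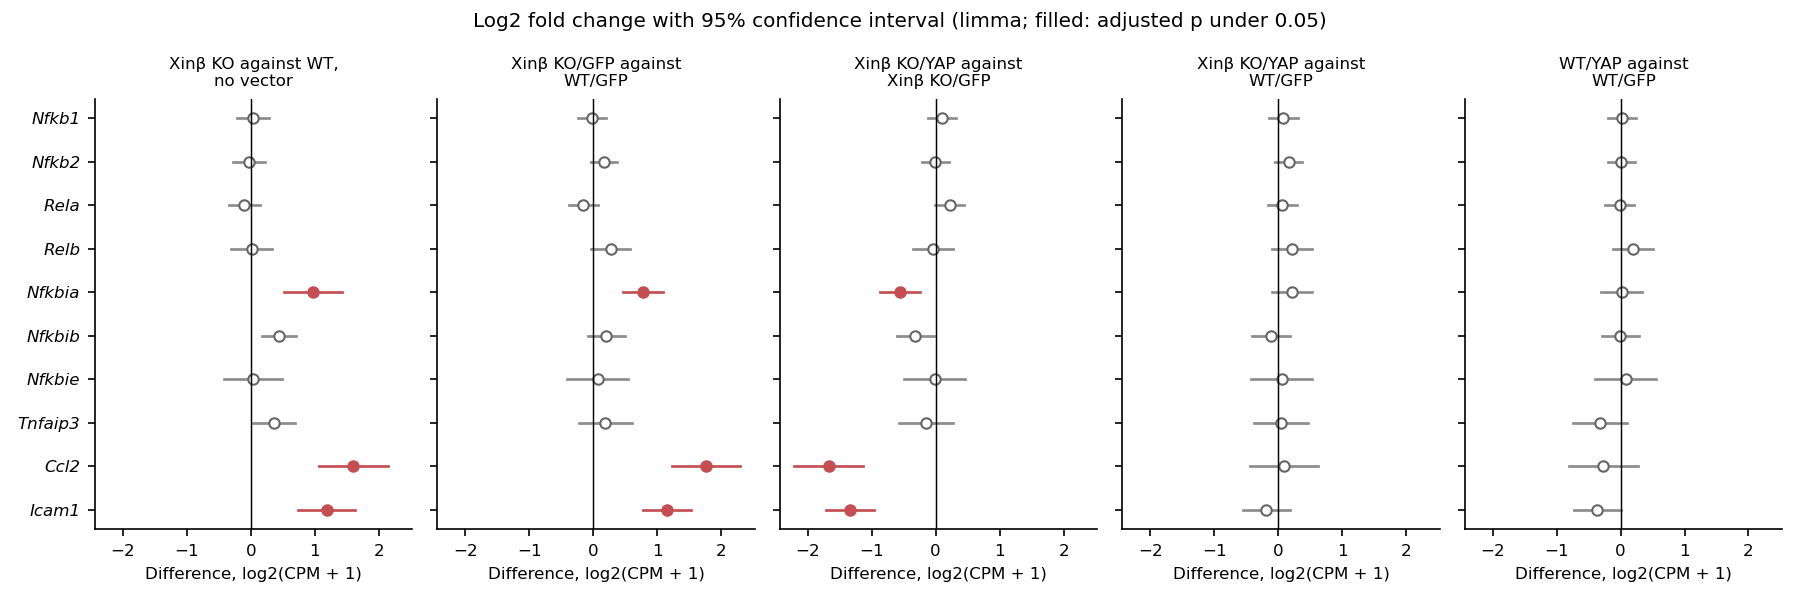
Difference in log2(CPM + 1) of each of the 10 genes in 5 comparisons, with points for the limma estimate, lines for its 95% confidence interval and filled red points for adjusted p under 0.05. *Nfkbia*, *Ccl2* and *Icam1* lie right of 0 in both comparisons of genotype, left of 0 in *Xinβ* KO/YAP against *Xinβ* KO/GFP, and all 10 intervals include 0 where *Xinβ* KO/YAP or WT/YAP is set against WT/GFP.

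Levels of different genes were compared per kilobase of merged exon. *Nfkbia* was the most abundant of the 10, with group means of 19.0 to 42.7 CPM per kb, followed by *Rela* at 11.7 to 17.0 CPM per kb. The ranges of *Nfkb1* (4.64 to 5.77 CPM per kb), *Nfkb2* (4.82 to 6.14) and *Nfkbib* (4.57 to 6.395) overlapped, as did those of *Nfkbie* (0.619 to 0.898) and *Tnfaip3* (0.653 to 1.08), the lowest of the 10. The targets ranged most in proportion, *Ccl2* from 1.299 to 8.47 and *Icam1* from 2.24 to 8.72 CPM per kb. Group means of *Nfkbia* per kb were, in descending order, 42.7 ± 2.7 in *Xinβ* KO/GFP, 39.3 ± 11 in uninjected *Xinβ* KO, 29.2 ± 6.8 in *Xinβ* KO/YAP, 25.1 ± 4.3 in WT/YAP, 24.7 ± 3.5 in WT/GFP and 19.0 ± 0.96 in uninjected WT hearts (SD, n = 4). Neighbours in this order differed by less than the larger of their SDs, except WT/GFP and uninjected WT hearts, and levels across the 2 separately normalized sets were not tested.

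By GENCODE M21 on GRCm38, *Nfkbia* lies on chromosome 12 from 55489410 to 55492647 (ENSMUSG00000021025), *Ccl2* on chromosome 11 from 82035571 to 82037453 (ENSMUSG00000035385) and *Icam1* on chromosome 9 from 21015985 to 21028817 (ENSMUSG00000037405). *Icam1* shares 511 of its 4360 exon bases with the antisense gene Gm47079, *Nfkb2* shares 531 with AC114539.1 and 299 with *Psd*, and *Nfkbib* shares 314 with *Ccer2* and 42 with *Sirt2*, all on the opposite strand. The libraries were strand-specific, but the strand setting used in counting is not given in the sources used here, so reads of these stretches could belong to either gene. *Ccl2* overlaps the protein-coding gene Gm17268 on the opposite strand, with no exon bases in common, and no overlapping gene was found for *Nfkbia*.

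Over all 24 libraries, each gene centred within its set of libraries, the genes whose log2(CPM + 1) pattern lay nearest to that of *Nfkbia* among 13734 genes tested in both sets were *Rtn2*, *Lad1* and *Ech1*, at root mean square differences of 0.165, 0.170 and 0.174, where *Nfkbia* itself varied by 0.445. Nearest to *Ccl2* were *Fbxo31*, *Icam1* and *Cp*, at 0.350, 0.361 and 0.368, where *Ccl2* varied by 0.866. *Icam1* was thus the second nearest of all genes to *Ccl2*.

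Further genes of the pathway were taken from 4 lists of 97 genes: ligands and receptors, adaptors and kinases, further subunit, IκB family and feedback genes, and inflammatory targets. Of these, 70 were listed in uninjected and 72 in injected hearts, and 69 were tested in each. The classical ligands *Tnf*, *Il1a*, *Il1b*, *Lta* and *Ltb*, and the targets *Il6*, *Ccl3*, *Ccl4*, *Ccl5*, *Cxcl2*, *Ptgs2* and *Csf3*, are not among the listed genes of either set. In uninjected hearts 5 of the 69 were called higher and 1 lower, all 6 among the 17 tested inflammatory targets, and this share of 8.70% was near the 6.69% of all genes. Moreover, 4 of the 6 were at 1 CPM or less in every WT heart and over it in every *Xinβ* KO heart, so they passed the filter on low values (over 1 CPM in at least 50% of the libraries) only through the group where they are high. Of the other 65 genes 2 were called. Without *Xinβ* KO replicate 2, and likewise without replicate 3, the calls numbered 2. None of the 13 tested ligands and receptors, 25 adaptors and kinases and 14 further subunit, IκB family and feedback genes was called. The median log2 fold change over the 69 genes was 0.04, against 0.0011 over all genes.

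*Lcn2*, which encodes the iron-binding protein lipocalin 2 and is also made by neutrophils, was at 6.41, 3.95, 7.59 and 3.06 CPM in uninjected *Xinβ* KO hearts but only 0.109, 0.208, 0.230 and 0.247 CPM in controls, a log2 fold change of 2.32. *Mmp9*, a matrix metalloproteinase that neutrophils also store, was at 2.22 to 4.90 CPM against 0.362 to 0.453 CPM (log2 fold change 1.60). *Cxcl1*, a chemokine that attracts neutrophils, had a log2 fold change of 1.03, and *Selp*, the endothelial and platelet adhesion molecule P-selectin, of 1.58 on values of 0 to 0.783 CPM in WT hearts. These are the 4 genes that passed the filter only through the *Xinβ* KO hearts, and their values are given as a description. *Gadd45b*, a stress-response gene, was higher in *Xinβ* KO hearts (1.07, adjusted p = 0.00777, limma). *Nos2*, the inducible nitric oxide synthase, went the other way, at 6.46, 4.84, 4.05 and 5.61 CPM in *Xinβ* KO hearts and 18.7, 17.6, 23.97 and 21.1 CPM in controls (-1.78, adjusted p = 0.000864, limma). The groups did not overlap for *Gadd45b* or *Nos2*.

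In the GFP-injected hearts 5 of 69 pathway genes were called higher and 3 lower, a share of 11.6% where 13.7% of all genes were called, and 15 were called without *Xinβ* KO/GFP replicate 2. *Mmp9* (1.05, adjusted p = 0.00781), *Cxcl1* (1.52, adjusted p = 0.0126) and *Vcam1*, a leukocyte adhesion molecule (0.46, adjusted p = 0.0268), were higher and *Nos2* was lower (-1.06, adjusted p = 0.00301) in *Xinβ* KO/GFP hearts. All 4 *Xinβ* KO/GFP hearts but only 2 of the 4 WT/GFP hearts were over 1 CPM of *Mmp9*. *Nos2* was called in both comparisons of genotype. *Lcn2* had 10.7, 2.29, 4.68 and 16.5 CPM with the KO and 0.299, 0, 0.435 and 0.603 CPM in WT/GFP controls, and was not tested because it was over 1 CPM in fewer than 8 of the 16 libraries. Receptors moved in both directions. The interleukin-1 receptor *Il1r1* was at 38.7, 22.6, 38.6 and 36.7 CPM against 19.1, 17.2, 20.01 and 15.2 CPM (0.87, adjusted p = 0.00317), and the tumour necrosis factor receptor *Tnfrsf1a* was higher too (0.37, adjusted p = 0.0279). The other such receptor, *Tnfrsf1b* (-0.74, adjusted p = 0.0136), and *Tnfrsf12a*, the receptor of TWEAK (-0.74, adjusted p = 0.0199), were lower. No adaptor, kinase or feedback gene was called (0 of 26 and 0 of 14).

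Between *Xinβ* KO/YAP and *Xinβ* KO/GFP hearts 7 pathway genes were called higher and 6 lower, 18.8% of the 69 beside 14.8% of all genes. The lower ones were *Il1r1* (-0.82), *Tnfrsf1a* (-0.40), *Mmp9* (-1.21), *Vcam1* (-0.60), *Gadd45b* (-0.98) and *Csf1* (-0.71), the growth factor of macrophages. Among the higher ones were *Tnfrsf12a* (0.89), *Tnfrsf1b* (0.61), *Cd14* (0.77), *Il1rap* (0.50), *Traf2* (0.44) and *Nos2* (1.13). *Selp*, *Csf1*, *Cd14*, *Il1rap* and *Traf2* are outside the rule for named genes and were chosen after their values were seen. None of the 69 was called against WT/GFP hearts in *Xinβ* KO/YAP hearts or in WT/YAP hearts by limma, edgeR or DESeq2. The interaction was called for 7 of them, 5 higher and 2 lower, or 10.1% beside 7.56% of all genes. It was called for 5 to 7 without *Xinβ* KO/GFP replicate 2, 3 or 4, *Xinβ* KO/YAP replicate 2 or 4 or WT/YAP replicate 1, and for 3 or 4 without any other 1 of the 16 libraries.

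**Figure D3:**
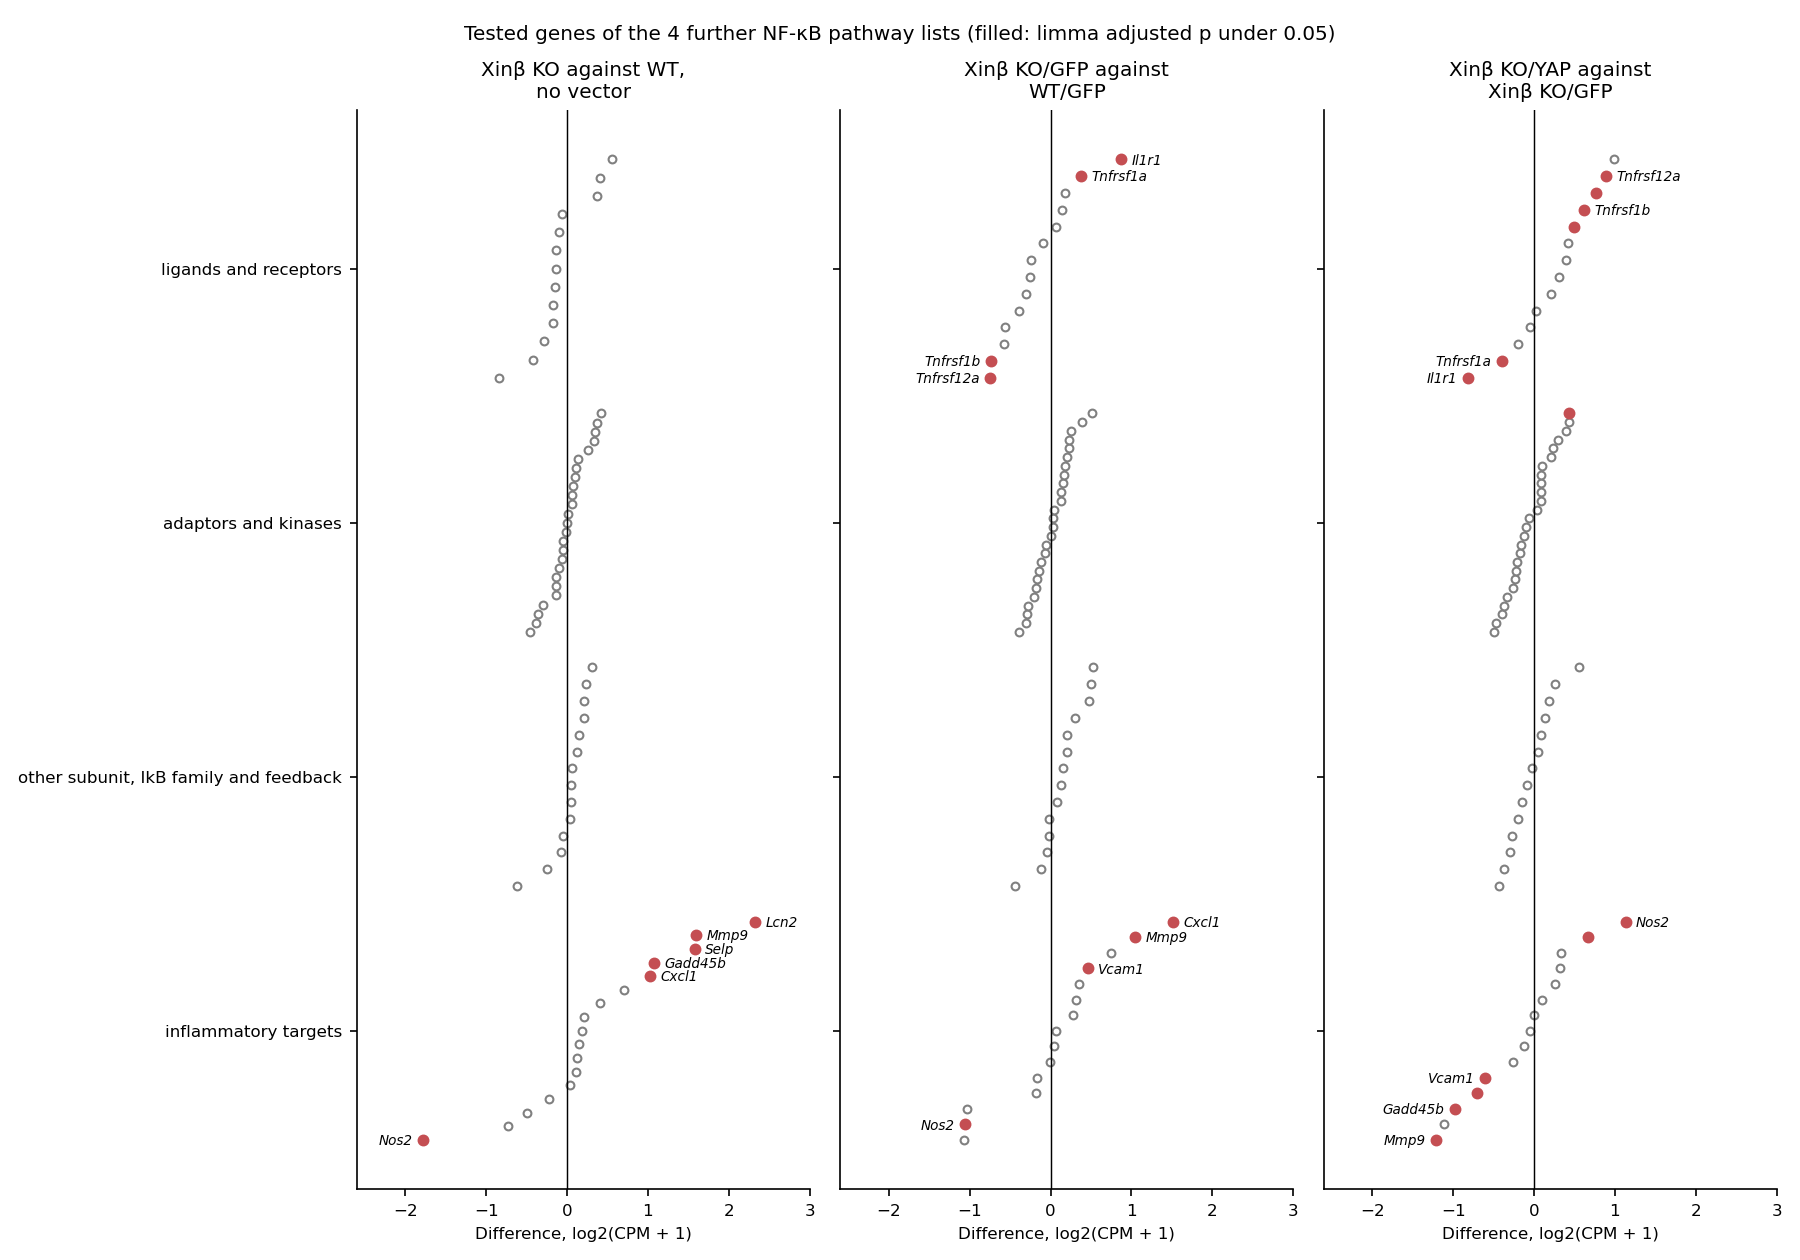
Difference in log2(CPM + 1) for the tested genes of the 4 pathway lists, 69 in each of 3 comparisons, sorted within each list, with filled red points for those with adjusted p under 0.05 in limma and names for the genes called in either comparison of genotype. In both comparisons of genotype the adaptors and kinases and the feedback genes are not called, and the called genes lie among the inflammatory targets and, with GFP, the receptors.

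The RNA came from unsorted heart tissue, so more cells of a type and more RNA per cell cannot be told apart. Among all 15598 genes tested in uninjected hearts, 504 were called higher with the KO and 540 lower. Among all 14597 in injected hearts, 939 were called higher and 1054 lower with the KO under GFP. In *Xinβ* KO/YAP against *Xinβ* KO/GFP hearts 1146 of them were called higher and 1010 lower. Most markers of neutrophils and of macrophages moved in opposite directions. Of 8 neutrophil markers 5 were listed (*Cxcr2*, *Camp* and *Mpo* were not), with a summed level of 48.6 to 105 CPM in uninjected *Xinβ* KO hearts against 4.65 to 10.7 CPM in WT hearts. All 5 were called higher there, but *Csf3r*, *Retnlg* and *Ngp* passed the filter on low values only through the *Xinβ* KO hearts. Without any 1 of the 4 *Xinβ* KO hearts, 2 were tested and both were called. In GFP-injected hearts 3 of the 4 tested were called higher (30.6 to 49.9 against 7.01 to 13.9 CPM summed over the 5 listed). The same number were called lower in *Xinβ* KO/YAP than in *Xinβ* KO/GFP hearts (3.21 to 14.4 CPM). The tested marker that was not called had log2 fold changes of -0.21 with the KO under GFP and -0.03 with YAP. *S100a8* had log2 fold changes of 3.44, 2.41 and -2.57 in these 3 comparisons.

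Most but not all macrophage markers were called lower where *Ccl2* was called higher. Of 8 tested macrophage markers 6 were called lower in uninjected *Xinβ* KO hearts (summed level 53.4 to 102 CPM against 102 to 121 CPM), but 2 without *Xinβ* KO replicate 2 or any 1 WT heart. In injected hearts 6 of 9 were lower with the KO under GFP (58.9 to 122 against 124 to 204 CPM), and 6 of 9 were higher in *Xinβ* KO/YAP than in *Xinβ* KO/GFP hearts (118 to 164 CPM). *Lyz2*, the lysozyme of myeloid cells, was not called at 0.56 in uninjected and -0.32 in GFP-injected hearts. *Csf1r*, the receptor that macrophages depend on, had log2 fold changes of -1.43, -1.16 and 1.07. None of the monocyte markers was called in any of the 3 comparisons. Endothelial markers, of interest for *Icam1*, summed to 1268 to 1619 CPM in uninjected *Xinβ* KO and 1620 to 1790 CPM in WT hearts, with 1 of 8 higher (*Vwf*) and 1 lower (*Kdr*), and 0 called without WT replicate 1 or 3. With the KO under GFP (1414 to 1526 CPM against 1506 to 1669 CPM in WT/GFP) *Vwf* was higher and *Kdr*, *Cdh5* and *Tek* were lower. In *Xinβ* KO/YAP against *Xinβ* KO/GFP hearts (1526 to 1608 CPM) *Kdr* and *Cdh5* were higher and *Vwf* and *Emcn* lower. Across fits without 1 library, 1 to 3 endothelial markers were called lower with the KO under GFP. With YAP 1 to 3 were called higher and 1 to 2 lower in such fits. Fibroblast markers summed in uninjected hearts to 1656 to 2467 against 3138 to 3284 CPM, with 4 of 8 lower, and 2 lower without any 1 WT heart. The part of these cell types in the levels of *Nfkbia*, *Ccl2* and *Icam1* was not tested.

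*Nfkbia* is also known to be induced by glucocorticoids. Of 15 glucocorticoid-responsive genes, 11 were called higher in uninjected *Xinβ* KO hearts and 12 in *Xinβ* KO/GFP hearts, with none lower. In *Xinβ* KO/YAP against *Xinβ* KO/GFP hearts 9 were called lower and none higher. Of all genes tested, 3.23% were called higher in uninjected and 6.43% in GFP-injected *Xinβ* KO hearts, and 6.92% lower with YAP. The list was chosen with earlier results of these data known. Without the hearts that stood apart the 3 counts of these genes were 12, 12 and 10. Across fits without 1 library they ran from 8 to 12, from 10 to 12 and from 5 to 10. The last was 5 without *Xinβ* KO/GFP replicate 1 or *Xinβ* KO/YAP replicate 3. The summed level of the 15 genes was 1592 to 2934 CPM in uninjected *Xinβ* KO hearts and 699 to 934 CPM in WT hearts. With the vectors it was 1252 to 2640 CPM in *Xinβ* KO/GFP, 735 to 1549 CPM in WT/GFP and 1008 to 2095 CPM in *Xinβ* KO/YAP hearts, so the *Xinβ* KO/YAP range overlapped both others. *Pdk4*, a metabolic kinase that was not called in any of the 3 comparisons, made up 51.3% of the mean sum in uninjected *Xinβ* KO, 56.2% in *Xinβ* KO/YAP and 38.6% in *Xinβ* KO/GFP hearts. Without it the sums were 798 to 1278 CPM in uninjected *Xinβ* KO and 363.1 to 469 CPM in WT hearts, and 868 to 1475 CPM in *Xinβ* KO/GFP, 427 to 661 CPM in WT/GFP and 653 to 892 CPM in *Xinβ* KO/YAP hearts. *Fkbp5*, a steroid receptor cochaperone, had log2 fold changes of 2.11, 2.06 and -2.09 in the 3 comparisons. *Pdk4* was chosen after its values were seen, and the part of this response in the level of *Nfkbia* was not tested.

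**Figure D4:**
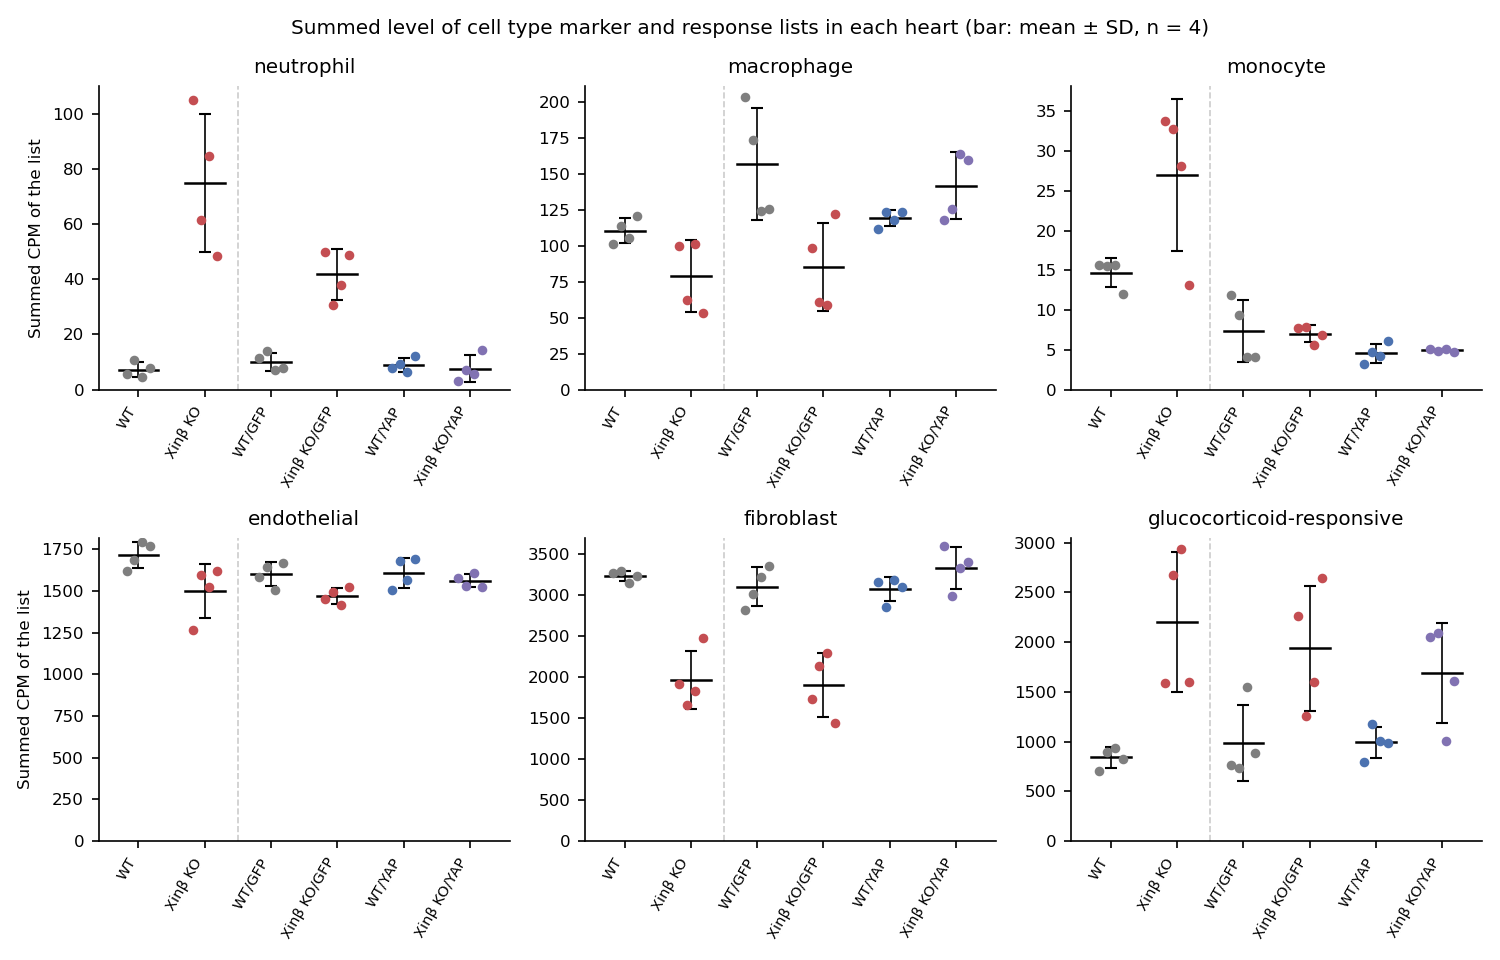
Summed CPM of the listed genes of 5 cell type marker lists and of a glucocorticoid-responsive list, with 1 point per heart and the mean ± SD of each group of 4 as black bars; the dashed line divides uninjected from injected libraries, which were normalized separately. Neutrophil markers are high and fibroblast markers low in *Xinβ* KO and *Xinβ* KO/GFP hearts. Macrophage markers are lower in them, though the highest such heart of each set lies close to its lowest WT control. In these 3 lists *Xinβ* KO/YAP hearts lie near the WT groups.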

How the data were processed

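RNA of 24 mouse hearts was measured by strand-specific, polyA-selected sequencing. According to the methods and the submitters' processing notes, the authors used cutadapt 2.3 for trimming, HISAT2 2.1.0 for alignment to GRCm38, StringTie 1.3.4 for the gene matrix and edgeR 3.26.1 for CPM. The deposited signal is CPM with column sums of 942566 to 1134439, read here as CPM on TMM-scaled library sizes. They were whole multiples of the worth of 1 read (100% of values in both tables), and these recovered reads served edgeR and DESeq2 as alternatives only. For WT replicate 1, uninjected, the worth of 1 read came from the steps between values. Of the listed genes, 15655 of 15667 and 15314 of 15327 matched GENCODE M21, which gave symbols, positions and exon lengths.

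Genes over 1 CPM in at least 50% of the libraries of a table were tested on log2(CPM + 1), which understates the change of low genes, with limma 3.58.1 (trend, Benjamini-Hochberg adjustment) in R 4.3.3. The 8 uninjected libraries formed 1 fit and the 16 injected libraries another, and no test crossed the tables. The study's methods name Fisher's exact test, which was not run. The alternatives were edgeR 4.0.16's own exact test, a negative binomial test, edgeR's quasi-likelihood test, DESeq2 1.42.0, other scalings, filters and pseudocounts, limma without the trend, a fit of only the groups compared, a *Ddx3y* covariate, a replicate block and fits without each library. The limma script was tested on simulated counts. The genes named are the 10 NF-κB genes, *Xirp2*, up to 4 genes per direction and pathway list with the smallest adjusted p among those called in either comparison of genotype, those called in both, defining markers, and the 3 genes nearest to *Nfkbia* and *Ccl2*. A called pathway gene is not reported here by name. Members and lists were chosen with earlier results of these data known. A direction was read from values rounded to 2 decimals. Nothing in the labels states more of the replicates than separate samples, so p-values measure the spread between these samples. Depth limits *Ccl2* and *Nfkbie* most, at 18 to 202 and 28 to 74 reads.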

Additional observations from a re-analysis of the deposited data

Results flagged for a closer look

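Among 60 groups of 4 hearts (10 genes in 6 groups), 5 held a heart far from the other 3 by Dixon's criterion, where chance gives about 3 (1 in 20). *Nfkbia* was at 63.5 CPM in *Xinβ* KO/YAP replicate 4 and at 40.4 to 42.5 CPM in the other 3 hearts of that group. Without this heart the log2 fold change of *Nfkbia* between *Xinβ* KO/YAP and *Xinβ* KO/GFP hearts was -0.71, against -0.56 with it, and the interaction was -0.73 (adjusted p = 0.0279, limma) against -0.58. *Nfkb1* was at 68.3 CPM in the same heart (56.5 to 58.2 CPM in the others) and at 65.1 CPM in *Xinβ* KO/GFP replicate 4 (52.8 to 53.0 CPM). *Nfkbib* was at 10.2 CPM in WT/GFP replicate 2 (11.9 to 12.1 CPM) and *Icam1* at 8.92 CPM in WT/YAP replicate 2 (13.5 to 14.5 CPM). The interaction of genotype and vector was called in limma for *Ccl2* (-1.41) and *Icam1* (-0.97), each in 11 of 16 fits without 1 library.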

How the results depend on the processing

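Of 796 fold changes of the 10 genes refitted under alternatives other than leaving out a library, 786 kept their direction and side of the threshold, 2 lost a call, 3 gained one and 5 changed sign near 0. The sign changes were *Nfkb1* with quantile normalization (-0.01) and, with the *Ddx3y* covariate, *Relb* (-0.02) in uninjected hearts, *Nfkbie* (0.01) in *Xinβ* KO/YAP against *Xinβ* KO/GFP, and *Nfkb2* in WT/YAP against WT/GFP (-0.01) and in the interaction (0.03). The calls gained were *Nfkbib* in uninjected hearts with quantile normalization (0.50, adjusted p = 0.0402 from limma) and DESeq2, and in *Xinβ* KO/YAP against *Xinβ* KO/GFP with the covariate (-0.37, adjusted p = 0.0496). The number of the 10 genes called in the interaction, 2, was 1 with edgeR's quasi-likelihood test, where *Ccl2* had -1.60 and an adjusted p of 0.0574, and 1 over 5 CPM, where *Ccl2* was not tested. Depth limits *Nfkbie* and *Ccl2*, and the causes of these shifts were not tested.

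Same-numbered libraries correlated at -0.191 to 0.0981 in uninjected and -0.171 to 0.137 in injected hearts, and 1 of 8 and 3 of 16 libraries correlated best with their own number, so the numbers were not taken as pairs. With the replicate block, the 1044 genes called in uninjected hearts became 201 higher and 184 lower, the 1104 called in the interaction became 707, and *Nfkbia* in uninjected hearts was not called (0.97, adjusted p = 0.0659).

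All genes called in uninjected hearts were 692 over 5 CPM, 1955 with DESeq2 and 1927 with the covariate. Fitting only the groups compared gave 930 in place of 1993 for *Xinβ* KO/GFP against WT/GFP, 1208 in place of 2156 for *Xinβ* KO/YAP against *Xinβ* KO/GFP and 15 in place of 6 for *Xinβ* KO/YAP against WT/YAP. edgeR's exact test and DESeq2 gave 21 and 24 in place of 3 for *Xinβ* KO/YAP against WT/GFP, 6 and 11 in place of 0 for WT/YAP against WT/GFP, and 42 and 71 in place of 6 for *Xinβ* KO/YAP against WT/YAP. Counts of called pathway genes were compared under alternatives added after seeing the data. In uninjected hearts 6 became 2 over 5 CPM and 10 with the covariate, in *Xinβ* KO/GFP against WT/GFP 8 became 14 with DESeq2 and 5 with only those groups, in *Xinβ* KO/YAP against *Xinβ* KO/GFP 13 became 8 with only those groups, in the interaction 7 became 4 with the replicate block, and in *Xinβ* KO/YAP against WT/YAP 0 became 1 with edgeR's exact test and with DESeq2. The exact test was not run for the interaction.

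Leaving out each library in turn gave from 316 (WT replicate 1 left out) up to 2031 (*Xinβ* KO replicate 4 left out) called genes in uninjected hearts, 1258 to 2749 (without *Xinβ* KO/GFP replicates 1 and 2) with GFP, 1474 to 2490 in *Xinβ* KO/YAP against *Xinβ* KO/GFP, 0 to 4 against WT/GFP, 0 to 1 in WT/YAP against WT/GFP, 0 to 8 in *Xinβ* KO/YAP against WT/YAP and 625 to 1467 in the interaction. Of the 10 genes, 2 to 4 were called in uninjected hearts, 3 to 3 with GFP, 2 to 4 in *Xinβ* KO/YAP against *Xinβ* KO/GFP and 0 to 3 in the interaction. Fold changes whose sign depended on 1 library were, in uninjected hearts, those of *Nfkb1* (-0.02 to 0.10), *Nfkb2* (-0.07 to 0.05), *Relb* (-0.11 to 0.08) and *Nfkbie* (-0.14 to 0.15). With GFP they were those of *Nfkb1* (-0.09 to 0.04) and *Nfkbie* (-0.08 to 0.26), and in *Xinβ* KO/YAP against *Xinβ* KO/GFP those of *Nfkb2* (-0.06 to 0.05), *Relb* (-0.15 to 0.08) and *Nfkbie* (-0.10 to 0.11). Against WT/GFP in *Xinβ* KO/YAP hearts they were those of *Nfkbie* (-0.09 to 0.25), *Tnfaip3* (-0.11 to 0.15) and *Ccl2* (-0.09 to 0.24), and in WT/YAP hearts those of *Nfkb1* (-0.06 to 0.07), *Nfkb2* (-0.03 to 0.09), *Rela* (-0.07 to 0.04), *Nfkbia* (-0.07 to 0.12), *Nfkbib* (-0.06 to 0.04) and *Nfkbie* (-0.09 to 0.28). In *Xinβ* KO/YAP against WT/YAP they were those of *Relb* (-0.02 to 0.10) and *Nfkbie* (-0.11 to 0.15), and in the interaction those of *Nfkb2* (-0.10 to 0.03) and *Nfkbie* (-0.29 to 0.08). None of these was called.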

Other observations

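Of the lists not described above, 2 of 8 cardiomyocyte markers, *Tnnt2* and *Pln*, were called higher by limma in uninjected *Xinβ* KO and in *Xinβ* KO/GFP hearts, and *Tnnt2*, *Pln* and *Nppa* were called lower in *Xinβ* KO/YAP than in *Xinβ* KO/GFP hearts. None was called between *Xinβ* KO/YAP and either WT group, and the calls in uninjected hearts numbered 0 without *Xinβ* KO replicate 2 or 3 or WT replicate 2, 3 or 4. Lymphocyte markers were mostly not listed (1 of 8 in uninjected and 3 of 8 in injected hearts), and those listed summed to at most 0.340 CPM in uninjected *Xinβ* KO hearts and to 1.11 to 1.75 CPM in WT hearts. In injected hearts they summed to at most 0.351 CPM in *Xinβ* KO/GFP and to 2.27 to 3.70 CPM in WT/GFP hearts. Monocyte markers, 3 of 4 listed, summed to 13.1 to 33.9 CPM in uninjected *Xinβ* KO and to 11.99 to 15.7 CPM in WT hearts. Of 10 immediate early genes, 1 (*Jun*) was called lower in uninjected *Xinβ* KO hearts and none in *Xinβ* KO/GFP hearts. In *Xinβ* KO/YAP against *Xinβ* KO/GFP hearts 6, among them *Fos* and *Egr1*, were called higher. Across fits without 1 library, 0 to 1 were called lower in uninjected hearts, 0 to 1 higher with the KO under GFP and 4 to 8 higher with YAP. With GFP, 6 of 8 fibroblast markers were lower in *Xinβ* KO hearts, and with YAP 6 of 8 were higher than with GFP. Without *Xinβ* KO/GFP replicate 2, which stood apart, 8 immediate early genes and 6 fibroblast markers were called higher in *Xinβ* KO/YAP than in *Xinβ* KO/GFP hearts, and with the KO under GFP 5 fibroblast markers were called lower and 3 cardiomyocyte markers higher.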
